A study of Mus musculus with 12 samples.

Results

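The genes described here encode the serine/arginine-rich splicing factors (SR proteins, symbols beginning Srsf), the heterogeneous nuclear ribonucleoproteins (hnRNPs, symbols beginning Hnrnp), the SF3a and SF3b subunits of the U2 small nuclear ribonucleoprotein (Sf3a and Sf3b), and the core and particle-specific proteins of the spliceosomal small nuclear ribonucleoproteins (snRNPs, symbols beginning Snrp). They were chosen by symbol from a transcript table of mouse myocardium, and 3 symbols marked as pseudogenes were left out. This gave 53 of 33641 gene symbols: 20 hnRNP genes, 11 SR genes, 9 SF3 genes and 13 snRNP genes. Abundance is given as TPM, each transcript's share of its library scaled for length, so levels can be compared between genes. Of the 53, 51 reached 1 TPM in 3 or more of the 12 libraries and were tested. Srsf12 and Snrpert did not.

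The 12 mice were male wild-type C57BL/6, about 16 weeks old when tissue was taken, in 4 groups of 3. The hearts had been sham-operated or given a myocardial infarction (MI), and 2 weeks later the mice began weekly injections of vehicle or of prednisone, a synthetic glucocorticoid. The 4 groups are therefore sham vehicle, sham prednisone, MI vehicle and MI prednisone. Prednisone was given at 1 mg/kg into the peritoneum at lights-on for 6 weeks, and myocardium was collected 24 hours after the final dose. The comparisons ask what infarction changed under each treatment, what prednisone changed under each operation, and whether the prednisone effect differed between operations.

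The spliceosome removes introns from pre-mRNA. SR proteins bind exons and mostly favour the use of nearby splice sites, and hnRNPs bind exons and introns and often oppose it. SF3a and SF3b hold the U2 snRNP on the branch point, and the Sm proteins form the ring around most spliceosomal small nuclear RNAs. Many SR and hnRNP genes also limit their own output, by splicing their transcripts into forms that keep an intron or carry a premature stop codon and are then degraded by nonsense-mediated decay. In heart muscle, splicing of titin and of calcium-handling genes changes with development and disease.

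MI vehicle replicate 3 stood apart from the other 11 libraries. Together the 53 genes summed to 3955 TPM there, against 1625 to 2072 TPM in the others, and 48 of the 51 tested genes were at their highest in that library. This went with the whole table, since 66.1% of all 13158 tested genes were also highest there. Measured from the mean of sham vehicle, the median splicing gene was 1.18 higher there in log2 terms, and the median of all genes was 0.74 higher. The same values were 0.10 and 0.14 in MI vehicle replicate 1 and 0.28 and 0.25 in replicate 2. Marker sums moved too: the 4 lymphocyte markers summed to 188 TPM there, against at most 15.4 TPM elsewhere, the 5 macrophage markers to 1195 TPM, the 3 adipocyte markers to 1352 TPM, and the 6 cardiomyocyte markers to 20920 TPM, the lowest of all. Cardiomyocyte markers were abundant in each group, but all 3 MI vehicle libraries (20920 to 25960 TPM) lay below the 9 others (29260 to 34970 TPM). In whole tissue, fewer cells of a type and less RNA per cell cannot be told apart, and the part of cell makeup in the results below was not tested. The main results are given with and without this library.

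**Figure D1:**
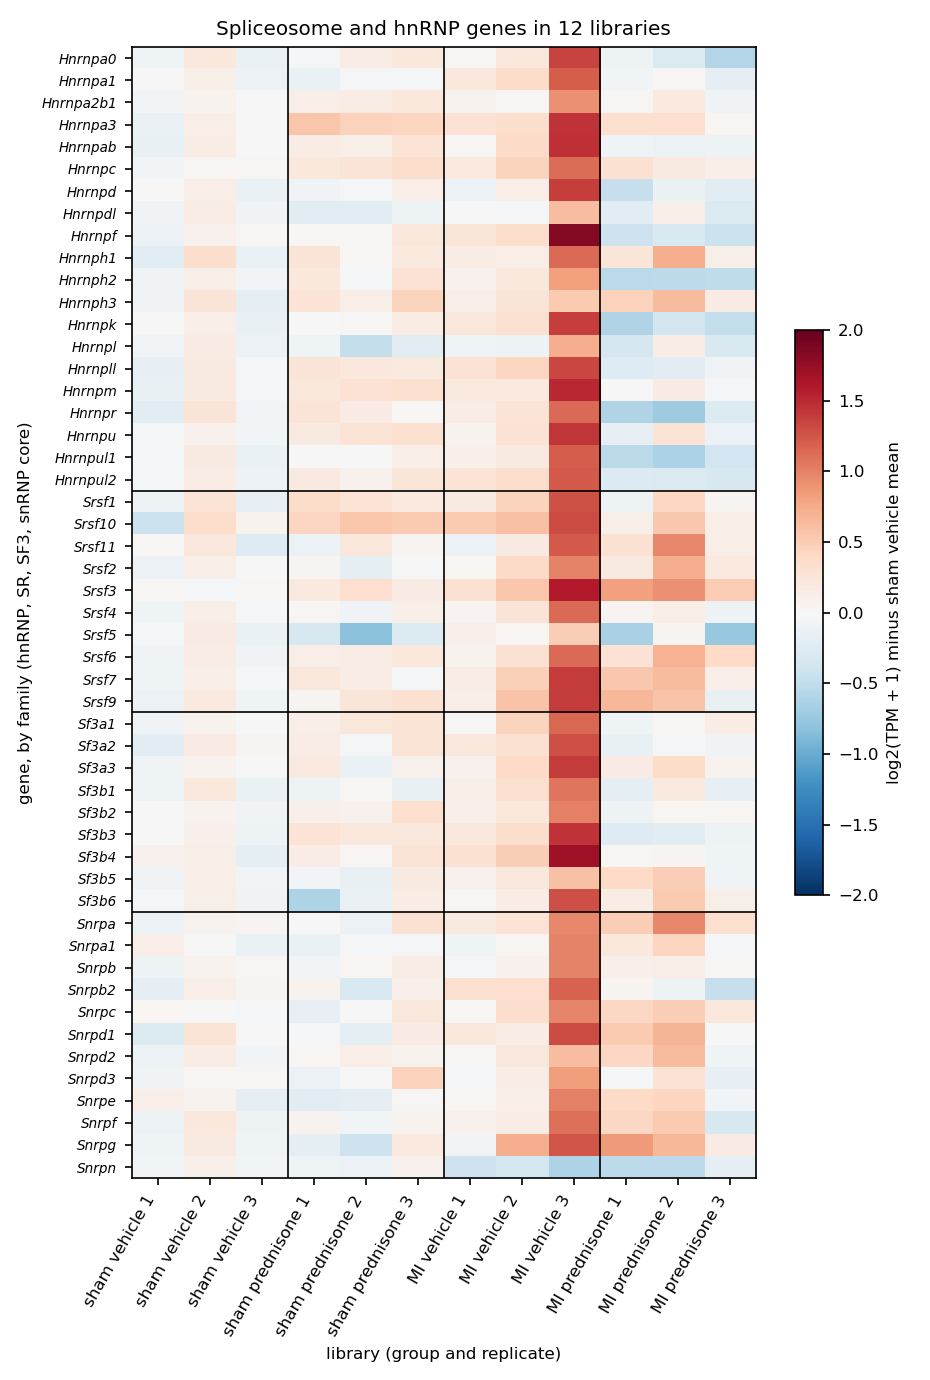
Each row is a tested gene, each column a library, and the colour gives log2(TPM + 1) minus the mean of the 3 sham vehicle libraries (red higher, blue lower). Lines part the groups and the families. MI vehicle replicate 3 is red in nearly every row and blue for Snrpn.

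The hnRNP genes were the most abundant family in every library. They summed to between 884.4 TPM and 1176 TPM outside MI vehicle replicate 3, where they reached 2395 TPM. The SR genes summed to between 270.3 and 417.5 TPM outside that library, the snRNP genes to between 307.8 and 429.6 TPM and the SF3 genes to between 127 and 164.3 TPM. By mean over all libraries, the leading hnRNP genes were Hnrnpa2b1 (230.4 TPM), also known for carrying RNA, Hnrnpk (150.4 TPM), which binds C-rich RNA through KH domains, and Hnrnpab (98.8 TPM). The leading SR genes were Srsf5 (73.7 TPM), Srsf2 (52.3 TPM), the speckle protein SC35, and Srsf3 (45.1 TPM), the smallest SR protein. Among the SF3 genes these were Sf3b2 (41.5 TPM), Sf3b6 (30.6 TPM), which contacts the branch-point adenosine, and Sf3b1 (23.9 TPM), which clamps the branch-point duplex. Among the snRNP genes they were Snrpb (64.2 TPM), encoding SmB, Snrpe (60.6 TPM), encoding SmE, and Snrpc (31.8 TPM), the U1-specific protein U1-C. The lowest tested genes were Sf3b5 (6.19 TPM) and Sf3a1 (8.47 TPM).

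In infarcted hearts, each of the splicing genes that passed the test was lower with prednisone. With limma and a threshold of 0.05 on the adjusted p, 14 of 51 genes were lower in MI prednisone than in MI vehicle and 0 were higher. These were 9 of 20 hnRNP genes, 3 of 9 SF3 genes, 1 of 12 snRNP genes and 1 of 10 SR genes. Over all genes 37.4% were called, 34.9% as lower and 2.5% as higher, so the share of splicing genes was not above the background. The median splicing gene changed by -0.43 and the median of all genes by -0.41 on the log2(TPM + 1) scale, which understates the change of low genes. By family, the median change was -0.70 for hnRNP genes, -0.51 for SF3, -0.29 for SR and -0.12 for snRNP genes. In 17 of 51 genes every MI prednisone library lay below every MI vehicle library, as it did in 42.6% of all genes; 0 were separated the other way, against 3.59%. Fibroblast and macrophage markers were lower beside them: 5 of 5 fibroblast markers were called lower, with sums between 639.1 and 734.8 TPM in MI vehicle and between 227.4 and 388.6 TPM in MI prednisone. So were 4 of 5 macrophage markers, with sums between 508.2 and 1195 TPM and between 250.1 and 473.9 TPM. Also called lower were 2 of 5 endothelial and 2 of 3 smooth muscle markers. Called higher were 3 of 6 cardiomyocyte and 3 of 4 atrial markers, and the atrial sums in MI prednisone (4335 to 6173 TPM) lay above the 9 other libraries (845.2 to 4106 TPM). The part of these cell types in the result was not tested.

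Without MI vehicle replicate 3, 11 of the 14 genes were still called lower and no other gene was called (31.6% of all genes): the 9 hnRNP genes, Sf3b3 and Sf3b4. The family medians were then -0.29 for hnRNP, -0.21 for SF3, 0.06 for SR and 0.18 for snRNP genes, against -0.22 for all genes. The scale between libraries also mattered. After median-ratio rescaling, which brings the median of all genes from -0.41 to -0.02, 14 genes were called, of which 8 were lower and shared with the 14 above and 6 were higher, where 28.8% of all genes were called: Hnrnph3, Sf3b5, Snrpa, Snrpc, Snrpd2 and Srsf6. The medians on that scale were -0.25 for hnRNP, -0.09 for SF3, 0.14 for SR and 0.32 for snRNP genes. With both changes together they were -0.04, 0.02, 0.30 and 0.43, with 5 genes called lower and 13 higher (27.1% of all genes called). The direction of the SR and snRNP families therefore turned with the scaling or that library, and that of the SF3 family with both together. The hnRNP median stayed below 0 in these 4 settings, but close to 0 in the last.

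Transcript length moved with this pattern. Each gene's deviation from its sham vehicle mean was set against transcript length across 11894 genes, which share library and read coverage. The sham vehicle mice themselves form that mean. Spearman's rho was -0.38, -0.40 and -0.25 for MI prednisone and ran from -0.12 to 0.24 for the 9 other mice. The median transcript length was 1171 bases for snRNP genes, 2034 for SR, 2092 for hnRNP and 3222 for SF3 genes, against 2321 for all genes. After a length correction, 45 of the 51 genes had a length, 6 of the 14 remained called lower (Hnrnpf, Hnrnph2, Hnrnpk, Hnrnpr, Hnrnpul1 and Snrpb2) and 3 were called higher (Hnrnph3, Sf3b5 and Srsf6), where 16.7% of all genes were called. The family medians were then -0.30 for hnRNP, -0.08 for SF3, -0.09 for SR and 0.12 for snRNP genes. The replicate block together with the length correction left 3 lower, Hnrnpf, Hnrnph2 and Hnrnpk, and 2 higher, with 11.3% of all genes called.

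**Figure D2:**
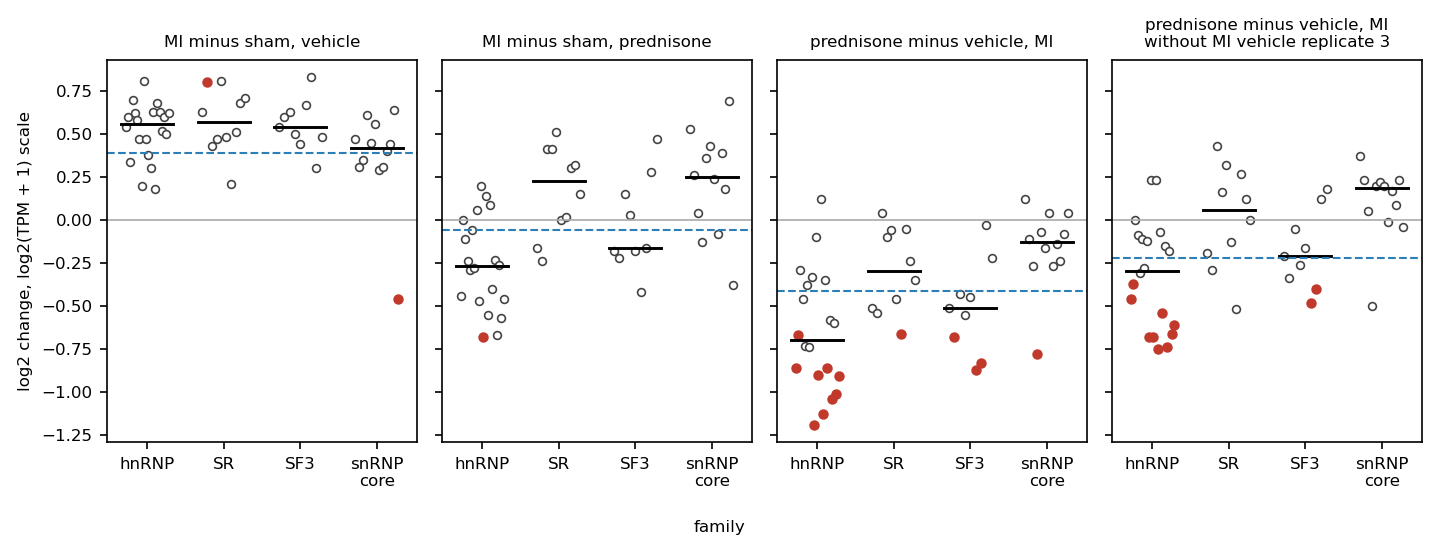
Each point is a gene, its log2 change on the log2(TPM + 1) scale given on the vertical axis and its family on the horizontal axis. Filled red points passed the limma threshold of 0.05, black bars are family medians and the dashed line is the median of all genes. With all libraries the hnRNP median was -0.70 in the prednisone comparison within MI, and without MI vehicle replicate 3 it was -0.29.

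The genes called lower with the most settings were Hnrnpk, Hnrnpf and Hnrnph2. Hnrnpk (chromosome 13, 58391142 to 58403343, GRCm38) stood at 159, 168 and 354.5 TPM in MI vehicle and at 89.5, 104 and 96.1 TPM in MI prednisone. In sham hearts it was at 137, 149 and 123 TPM with vehicle and at 136, 138 and 150.5 TPM with prednisone. The MI prednisone libraries were thus below all 9 others. The log2 change against MI vehicle was -1.13 (SE 0.24, limma adjusted p = 0.00565; 96.7 ± 7.50 against 227.2 ± 110 TPM, SD, n = 3 each), and -0.75 without MI vehicle replicate 3 (limma adjusted p = 0.00148).

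Hnrnpf and Hnrnph2 encode related proteins that bind runs of G. Hnrnpf (chromosome 6, 117900324 to 117925622) was at 72.8, 78.2 and 221.4 TPM in MI vehicle and at 45.8, 49.3 and 45.4 TPM in MI prednisone. Its sham values ran from 56.6 to 65.0 TPM with vehicle and from 62.2 to 72.2 TPM with prednisone, so MI prednisone was again the lowest group with no overlap. The log2 change against MI vehicle was -1.19 (SE 0.32, limma adjusted p = 0.0151), and -0.68 without MI vehicle replicate 3 (limma adjusted p = 0.00177).

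Hnrnph2 (chromosome X, 134601179 to 134607060) was at 25.3, 27.7 and 42.8 TPM in MI vehicle and at 15.9, 16.2 and 16.4 TPM in MI prednisone. Sham hearts held 22.6, 25.9 and 22.8 TPM with vehicle and 27.6, 23.4 and 29.3 TPM with prednisone. The MI prednisone values were the closest together of any group (SD 0.233 TPM) and lay below the other 9. The log2 change against MI vehicle was -0.90 (SE 0.17, limma adjusted p = 0.00337), and -0.68 without MI vehicle replicate 3 (limma adjusted p = 0.00243). These 3 genes were called lower under each alternative tried except the fit of only the 6 MI libraries, where limma called 0 of the 51 genes (adjusted p = 0.0543 for Hnrnph2, 0.0637 for Hnrnpk and 0.0951 for Hnrnpf) and 6.14% of all genes.

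**Figure D3:**
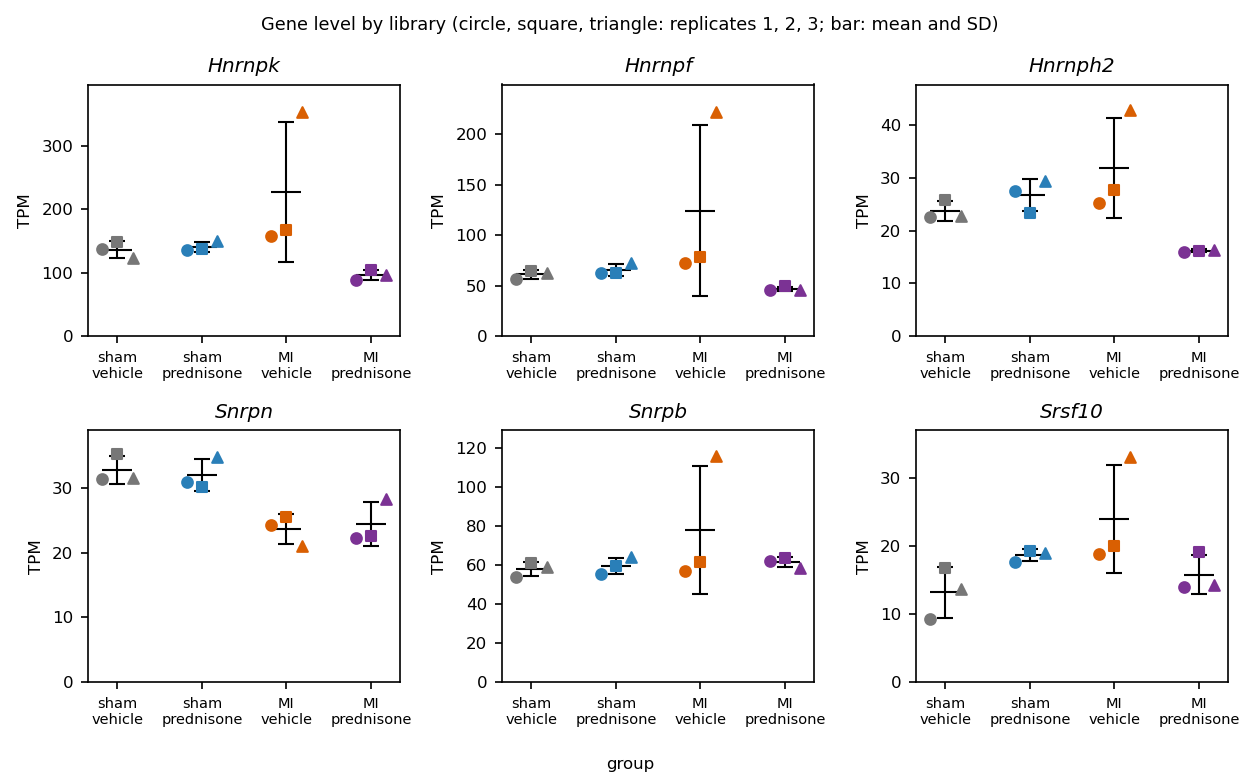
TPM in each library for 6 genes, by group; circles, squares and triangles are replicates 1, 2 and 3, and bars give the mean and SD of 3. In Hnrnpk, Hnrnpf and Hnrnph2 the MI prednisone points lie below all others, and Snrpn is lower in both MI groups.

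The other hnRNP genes called lower changed by between -0.67 and -1.04 with all libraries and by between -0.37 and -0.74 without MI vehicle replicate 3. Hnrnpr, a relative of the mRNA-binding protein Syncrip, fell from 18.8, 20.5 and 38.1 TPM in MI vehicle to 10.8, 9.90 and 13.7 TPM in MI prednisone (log2 change -1.04, limma adjusted p = 0.00706). Hnrnpul1 fell to 15.2, 14.2 and 17.1 TPM from 24.4, 25.5 and 53.4 TPM (-1.01, limma adjusted p = 0.00835). Both were lower in MI prednisone than in any sham library. Hnrnpul1 and Hnrnpul2 are named for their likeness to hnRNP U, a nuclear scaffold protein. Hnrnpul2 was at 13.6, 13.5 and 13.1 TPM in MI prednisone against 20.3, 21.6 and 40.2 TPM in MI vehicle (-0.91, limma adjusted p = 0.0072).

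Hnrnpll is the paralogue of Hnrnpl and is known for splicing of CD45 in lymphocytes. It was at 8.98, 9.93 and 19.5 TPM in MI vehicle and at 5.80, 6.06 and 6.79 TPM in MI prednisone (log2 change -0.86, limma adjusted p = 0.0139). The highest value is in the library with the highest lymphocyte markers, MI vehicle replicate 3, where 48 of the 51 tested genes were highest. Without that library the change was -0.54 (limma adjusted p = 0.00769). Hnrnpl itself overlapped between the groups, at 67.2, 66.7 and 118.9 TPM against 56.4, 79.2 and 57.6 TPM (limma adjusted p = 0.227). Hnrnpa1, a classical exon silencer, changed by -0.67 (limma adjusted p = 0.0258) and its more abundant relative Hnrnpa2b1 by -0.29 (limma adjusted p = 0.245). Whether these paralogues differed was not tested. Hnrnpa0 changed by -0.86 (limma adjusted p = 0.0327).

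Among the U2 proteins, Sf3b3, a scaffold of SF3b, was at 6.85, 7.03 and 7.80 TPM in MI prednisone and at 9.95, 11.0 and 24.5 TPM in MI vehicle (-0.87, SE 0.25, limma adjusted p = 0.0216). Sf3b4, which touches the pre-mRNA upstream of the branch point, changed by -0.83 (limma adjusted p = 0.0405), and Sf3a2, a zinc-finger subunit of SF3a, by -0.68 (limma adjusted p = 0.0434). The largest subunit gene, Sf3b1, changed by -0.55 with overlapping groups (limma adjusted p = 0.0676). Snrpb2, the U2-specific protein U2-B″, fell from 14, 14.1 and 26.01 TPM to 11.4, 10.1 and 7.71 TPM (-0.78, limma adjusted p = 0.023). Sf3a2 and Snrpb2 missed the threshold without MI vehicle replicate 3 (limma adjusted p = 0.0684 and 0.0503). Sf3b4 and Sf3a2 also missed it when any sham or MI prednisone mouse was left out. Sf3b3 missed it without MI prednisone replicate 1 or 2 (limma adjusted p = 0.0571 without replicate 2), and Snrpb2 without replicate 3. Of these genes, only Sf3b3 was still called lower after median-ratio rescaling, and only Snrpb2 after length correction.

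Srsf5 was the only SR gene called, and its groups overlapped, at 86.4, 83.2 and 113.9 TPM in MI vehicle and 51.1, 84.2 and 47.1 TPM in MI prednisone (-0.66, SE 0.22, limma adjusted p = 0.0375; adjusted p = 0.118 without MI vehicle replicate 3). Srsf3 stood at 55.7, 59.1 and 44.7 TPM in MI prednisone, above all 6 sham libraries (30.0 to 39.5 TPM). Against sham prednisone the change was 0.51 (SE 0.26) and missed the limma threshold (adjusted p = 0.209); without MI vehicle replicate 3 it was called.

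Infarction alone moved few of these genes past the test. In vehicle-treated mice 2 of 51 were called, Srsf10 higher and Snrpn lower in MI, against 16% of all genes (15.1% higher and 0.904% lower). Yet 50 of 51 changes lay above 0, with a median of 0.51 against 0.39 over all genes. In 18 genes all MI values lay above all sham values (40.8% of all genes) and in 1 below (4.17%). Markers moved too: 5 of 5 fibroblast and 5 of 5 macrophage markers were called higher in MI, as were 4 of 5 endothelial, 2 of 3 smooth muscle and 1 of 4 atrial markers, and 2 of 6 cardiomyocyte markers lower; their part was not tested. Without MI vehicle replicate 3 the 2 medians were both 0.19, and 0 genes were called (7.34% of all genes). After median-ratio rescaling the medians were 0.07 and 0.02, with Snrpn as the only call. With that library kept and MI vehicle replicate 1 left out, 33 were called, along with 42.8% of all genes. The higher level of these genes in infarcted vehicle hearts thus rested largely on 1 mouse.

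Snrpn encodes SmN, a paralogue of SmB that is transcribed from the paternal chromosome only and is found in brain and heart. It ran against the other genes (chromosome 7, 59982495 to 60140219). It was at 31.5, 35.4 and 31.6 TPM in sham vehicle and at 24.3, 25.6 and 21.1 TPM in MI vehicle, with no overlap and with its lowest value in MI vehicle replicate 3. The log2 change was -0.46 (SE 0.12, limma adjusted p = 0.0343). With prednisone it was at 31.0, 30.3 and 34.9 TPM in sham hearts and at 22.4, 22.6 and 28.4 TPM in MI hearts, also without overlap (-0.38, limma adjusted p = 0.0562). Prednisone left it within the spread in both operations (0.04 in MI and -0.03 in sham; limma adjusted p = 0.801 and 1). Without MI vehicle replicate 3 the change in vehicle-treated mice was -0.38 and missed the threshold (limma adjusted p = 0.0789), and that under prednisone passed it (adjusted p = 0.0234). The call in vehicle-treated mice was also lost when any sham vehicle mouse, or sham prednisone replicate 1 or 2, was left out. So it was with the replicate block, with only the groups compared and with the most abundant transcript. After median-ratio rescaling the change in vehicle-treated mice was -0.88 with that library (limma adjusted p = 0.0308) and -0.61 without it (adjusted p = 0.0282).

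Snrpb, the SmB gene, was at 53.6, 60.8 and 58.8 TPM in sham vehicle and 56.8, 61.5 and 115.8 TPM in MI vehicle (0.35, limma adjusted p = 0.204). The ratio of Snrpb to Snrpn was between 1.70 and 1.96 in the 6 sham libraries and between 2.06 and 5.49 in the 6 MI libraries, which did not overlap. It is a ratio within a library, so it carries no scaling between libraries, and it was chosen after these values were seen. It can carry the length pattern of the MI prednisone libraries, since transcript length was 1159 bases for Snrpb and 1932 for Snrpn. The part of length was not tested. Snurf, which lies on the same transcripts as Snrpn and can share its reads, was at 40.8 ± 6.35 TPM in sham vehicle, 46.1 ± 3.45 in sham prednisone, 31.8 ± 8.27 in MI vehicle and 17.8 ± 9.49 in MI prednisone (SD, n = 3 each).

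Srsf10, an SR-like protein that turns into a splicing repressor when dephosphorylated, was at 9.26, 16.8 and 13.6 TPM in sham vehicle and at 18.8, 19.96 and 33.1 TPM in MI vehicle (0.80, SE 0.24, limma adjusted p = 0.0435). The groups did not overlap, but sham prednisone hearts, at 17.7, 19.3 and 19.01 TPM, were close to the 2 lower MI vehicle libraries. The call was lost without MI vehicle replicate 3 (0.56, limma adjusted p = 0.115), and also when any of 8 other mice was left out in turn.

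With prednisone, 1 of the 51 genes differed between MI and sham hearts by the test. Only Hnrnph2 was called, lower in MI at 16.2 ± 0.233 against 26.8 ± 3.05 TPM in sham (log2 change -0.68, SE 0.17, limma adjusted p = 0.0205), where 16.8% of all genes were called (14.1% lower and 2.73% higher). The call was lost when either MI prednisone replicate 1 or 2, or sham prednisone replicate 1 or 3, was left out (limma adjusted p between 0.0675 and 0.0807). The median change was -0.27 for hnRNP genes and -0.16 for SF3 genes, but 0.25 for snRNP and 0.23 for SR genes, against -0.06 for all genes. In 16 of 51 genes all 3 MI values lay below all 3 sham values and in 5 above, against 32.2% and 12.9% of all genes. Of the 16, 12 were among the 20 hnRNP genes, none of which was separated upwards. This comparison and that of prednisone within MI share the MI prednisone libraries.

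MI vehicle replicate 3 is in neither of these groups, but enters the spread they share. Without it, 12 genes were called: Hnrnpa0, Hnrnpf, Hnrnph2, Hnrnpk, Hnrnpll, Hnrnpr, Hnrnpul1, Hnrnpul2, Sf3b3 and Snrpn lower, and Snrpa and Srsf3 higher (30.2% of all genes). Median-ratio rescaling called 13 of 51, beside 26% of all genes, with 5 hnRNP genes lower and 8 genes higher: 4 snRNP genes (Snrpa, Snrpc, Snrpe and Snrpg), 3 SR genes (Srsf2, Srsf3 and Srsf6) and Sf3b5. Its medians were -0.16 for hnRNP, -0.06 for SF3, 0.35 for snRNP and 0.33 for SR genes. After the length correction the snRNP and SR medians were 0.03 and 0.01, the hnRNP median was -0.18 and the SF3 median was 0.13.

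In sham-operated hearts prednisone changed none of these genes detectably. Limma called 0 of 51 with all libraries and in every alternative. With all libraries it called 0.114% of all genes (0.0532% higher and 0.0608% lower). By limma 0 of 51 had an unadjusted p under 0.05, against 469 of 13158 genes. In 13 genes the groups did not overlap, 11 higher and 2 lower with prednisone, against 18.2% of all genes (15.6% and 2.58%). The median change was 0.09, against 0.07 for all genes, and single genes ran from -0.47 (Srsf5) to 0.51 (Srsf10). With 3 mice a group, changes of this size could not be told from the spread.

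The prednisone effect differed between MI and sham hearts for 7 genes by limma's interaction term, each lower in MI: Hnrnpr, Hnrnpk, Hnrnpll, Hnrnpul2, Hnrnph2, Hnrnpul1 and Srsf10. Over all genes 21.3% were called (20.7% lower and 0.54% higher). The differences ran from -1.05 to -1.19, and the median over the 51 genes was -0.48, the same as over all genes. By family the medians were -0.89 for hnRNP, -0.62 for SF3, -0.32 for SR and -0.07 for snRNP genes. After median-ratio rescaling these were -0.35, -0.08, 0.21 and 0.46, with Hnrnph2 and Hnrnpul2 called (10.1% of all genes). Without MI vehicle replicate 3, Srsf10 missed the threshold, the other 6 were called, and so were Hnrnpa3, Hnrnpf, Sf3b3 and Sf3b4 (23.5% of all genes). When any of 7 other mice was left out (sham vehicle 1 or 3, any sham prednisone mouse, or MI prednisone 1 or 2), the only call was Hnrnph2. In those settings 8.44% to 12.2% of all genes were called. Without MI vehicle replicate 1 there were 20 calls (34.4% of all genes).

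A second readout compared transcripts within each gene. For each library, the TPM of transcripts annotated by GENCODE M21 as targets of nonsense-mediated decay or as retaining an intron was set against the TPM of the gene's protein-coding transcripts, as a log2 ratio with 1 TPM added to each. A shift of all genes cancels in the ratio except for the added 1 TPM, which weighs on low transcripts; with 0.1 TPM added instead, 8 genes were called higher and 1 lower in each of the next 2 comparisons. The ratio could be formed for 22 of the splicing genes and 2583 genes in all. In MI prednisone hearts the balance moved towards these non-coding forms: against MI vehicle 9 of 22 genes were higher and 1 lower by limma, and against sham prednisone also 9 and 1. Over all genes 35.4% were called in the first of these comparisons (29.5% higher and 5.92% lower) and 31.9% in the second (25.2% higher and 6.7% lower). The median change was 0.63 against 0.46 for all genes in the first and 0.47 against 0.35 in the second, so the movement was shared with the rest of the table.

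Against MI vehicle, the SR genes whose balance moved most were Srsf2 and Srsf5. In Srsf2 the non-coding forms took 41.6%, 53.5% and 48.5% of the classified TPM in MI prednisone. They took between 16.7% and 26.9% in the 9 other libraries, with no overlap. The log2 balance changed by 1.56 against MI vehicle (SE 0.29, limma adjusted p = 0.0013) and by 1.75 against sham prednisone (SE 0.29, limma adjusted p = 0.000624), while the summed level of the gene did not pass the test in either comparison.

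In Srsf5 the share was 32.8%, 33.1% and 27.1% in MI prednisone and between 11.2% and 19.9% elsewhere, again apart from all other libraries. The change was 1.47 against MI vehicle (SE 0.25, limma adjusted p = 0.000724). Srsf1, the founding SR protein, changed by 1.17, Srsf11 by 1.16 and Srsf9 by 1.00 (limma adjusted p = 0.0149, 0.0131 and 0.0471). The call of Srsf1 was lost without MI vehicle replicate 3 or MI prednisone replicate 2 (0.91 and 0.87, limma adjusted p = 0.067 and 0.0756), and that of Srsf11 without MI prednisone replicate 2 (0.88, adjusted p = 0.0673). That of Srsf9 was lost when any of 8 mice was left out, with the smallest change without MI vehicle replicate 3 (0.68, limma adjusted p = 0.185). Srsf3 has transcripts whose identifiers matched the annotation only without version numbers. With that match its mean share was 75.6% in MI prednisone and between 65.3% and 68.3% in the other groups. The change was 0.68 against MI vehicle (SE 0.24, limma adjusted p = 0.0437). Against sham prednisone it was 0.52 and was not called (limma adjusted p = 0.123).

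Among hnRNP genes, the share in Hnrnpl, whose protein binds CA repeats, was 47.0%, 58.4% and 49.1% in MI prednisone and between 24.6% and 41.7% in the 9 other libraries. Its balance changed by 1.30 against MI vehicle (SE 0.27, limma adjusted p = 0.00309). Hnrnpa2b1 changed by 1.18 (limma adjusted p = 0.00765). Its share was 14.6%, 16.4% and 15.1% in MI prednisone and 4.80% to 10.1% in MI vehicle, but 10.8% to 13.6% in sham vehicle. Hnrnpk rose to 44.2%, 48.9% and 36.0% from 25%, 24.4% and 28.9% (1.09, limma adjusted p = 0.013), and this rested on retained-intron models, since the change was -0.19 when those were left out. Its call was also lost without MI prednisone replicate 2 (0.92, limma adjusted p = 0.0602). Against sham prednisone Hnrnpd was also called higher (1.07, limma adjusted p = 0.0313), but not without MI prednisone replicate 2 (0.75, adjusted p = 0.139) or without sham prednisone replicate 1 or 3 (0.96 and 1.04, adjusted p = 0.096 and 0.0812).

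Snrpa, the U1-specific protein U1-A, had the largest change of the 22, 2.92 against MI vehicle (SE 0.61, limma adjusted p = 0.00291). Its share was 37.6%, 54.3% and 17.6% in MI prednisone and between 0% and 13.3% elsewhere, so the 3 MI prednisone mice differed widely. Hnrnpu went the other way, from 84.3%, 84.6% and 87.8% in MI vehicle to 67.3%, 76.3% and 78.4% in MI prednisone (-0.99, SE 0.22, limma adjusted p = 0.00401). Most of its classified TPM sat on a transcript annotated as a decay target, so the annotation class does not show that a transcript was degraded, and Hnrnpu and Srsf1 also have 30 rows of identical values under paired identifiers.

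**Figure D4:**
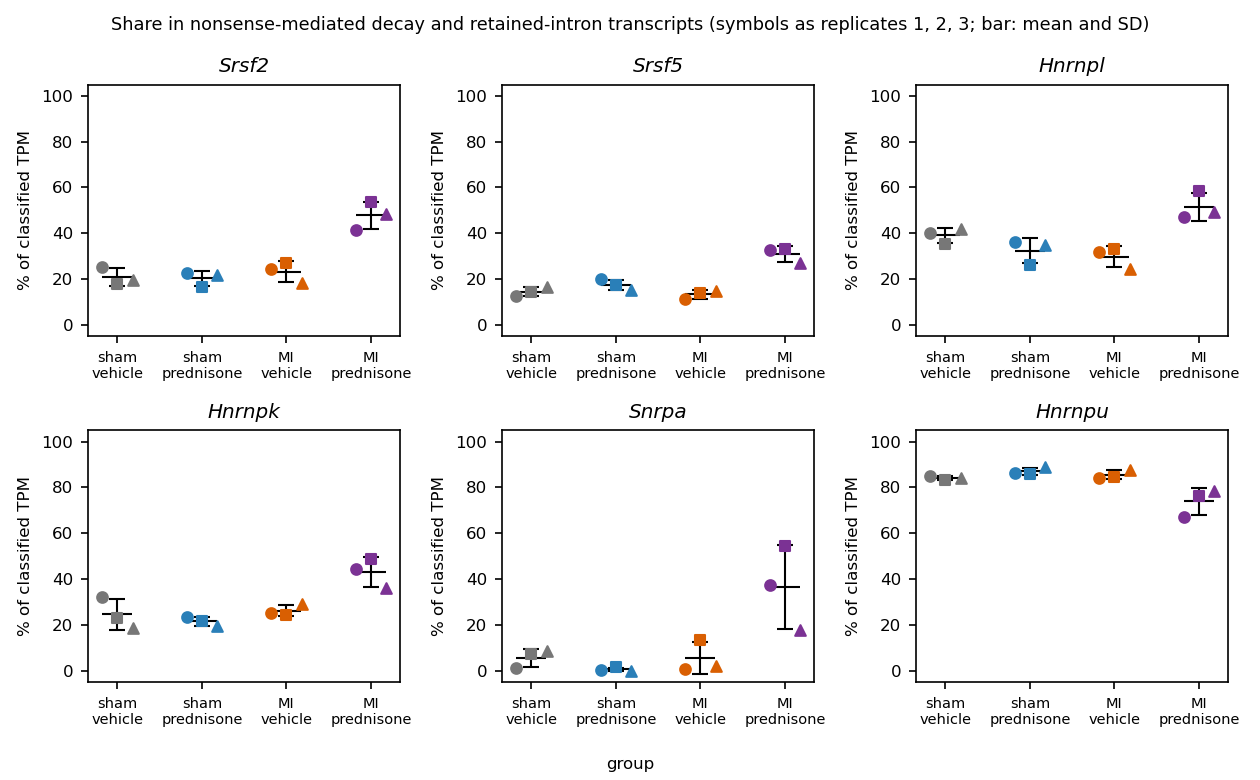
Percentage of each gene's classified TPM in transcripts annotated as nonsense-mediated decay targets or retained introns, for each library by group; symbols are replicates 1, 2 and 3 and bars give the mean and SD of 3. In Srsf2, Srsf5, Hnrnpl, Hnrnpk and Snrpa the MI prednisone points lie above all others, and in Hnrnpu below.

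Sequences are shown for Hnrnpl and Srsf5 because they are the parts that make these transcripts non-coding. In Hnrnpl the decay transcript carries an exon of 70 bases (chr7:28817335-28817404, GRCm38, plus strand, GENCODE M21) that the coding transcripts lack. It is printed from its first base to the in-frame stop codon, in capitals (chr7:28817335-28817393).
Hnrnpl decay exon: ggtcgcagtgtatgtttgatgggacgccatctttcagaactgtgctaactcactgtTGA
This transcript was at 10.8, 17.6 and 11.99 TPM in MI prednisone, at 7.10, 6.93 and 9.13 TPM in MI vehicle, at 7.64, 3.64 and 6.70 TPM in sham prednisone and at 7.69, 8.90 and 10.1 TPM in sham vehicle. The MI prednisone values were the highest, with no overlap.

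In Srsf5 the main non-coding transcript keeps an intron of 1229 bases (chr12:80947866-80949094, plus strand). Its ends are printed with 10 and 5 exon bases around them, and the capitals mark the first 6 bases and the last 2 bases of the intron, where it would be cut.
Srsf5 5′ end (chr12:80947856-80947885): cagctggcagGTTTGTtgaaatacagtttt
Srsf5 3′ end (chr12:80949070-80949099): cttaacataattgtcttgtgttaAGgatct
The transcript was at 14.2, 22.7 and 10.9 TPM in MI prednisone and at 6.55, 7.59 and 12.9 TPM in MI vehicle, where the groups overlapped. Sham libraries ran from 5.68 to 9.29 TPM. Every MI prednisone value was above every sham value, while the summed level of the gene in that group was below all MI vehicle values in 2 of 3 libraries.

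The non-coding class was shorter than the coding class in 20 of the 22 genes. The 2 in which it was longer, Srsf5 (2720 against 1524 bases) and Srsf9 (1392 against 1155 bases), were both called higher against MI vehicle. Against sham prednisone Srsf5 was called higher and Srsf9 was not (0.42, limma adjusted p = 0.404). Over all genes the median change against MI vehicle was 0.41 where the non-coding class was the longer and between 0.43 and 0.49 where it was shorter. Without prednisone, infarction changed the balance of 0 of 22 genes by limma (0% of all genes called, with 4 of the 22 and 221 of 2583 at an unadjusted p under 0.05). In sham hearts prednisone changed 0 of 22 (0.0387% of all genes called, with 4 of the 22 and 180 of 2583 at an unadjusted p under 0.05). The interaction was called for 10 genes, 8 higher and 2 lower, where 22.2% of all genes were called (18.5% higher and 3.76% lower).

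Other parts of the splicing machinery were read from 9 lists. In MI prednisone against MI vehicle, limma called 6 of 21 tri-snRNP and Prp19 complex genes lower and 1 higher, 5 of 10 helicases lower, 7 of 19 RNA-binding proteins akin to hnRNPs lower, 4 of 16 LSm and SMN complex genes lower, 1 of 13 exon junction and decay factors lower, and 1 of 17 SR-related genes in each direction. It called 0 of 7 genes for recognition of the 3′ splice site and 0 of 7 further U snRNP proteins. These shares stand beside the 34.9% of all genes called lower. They depended on the scaling. After median-ratio rescaling limma called 7 of 17 SR-related genes and 6 of 16 LSm and SMN genes higher, and 0 and 1 lower. It called 3 of 19 hnRNP-like genes lower and 1 higher. Over all genes, 1917 of 13158 were called higher on that scale and 1870 lower. Dhx15, which takes apart spent spliceosomes, changed by -0.97 (limma adjusted p = 0.0122), and the polypyrimidine-tract protein Ptbp3 by -1.65 (adjusted p = 0.00319). The kinase Srpk2, which phosphorylates SR proteins, changed by -0.80 (limma adjusted p = 0.00206), and the speckle protein Son by 0.57 (adjusted p = 0.0367). Srpk2 and Son turned direction when the most abundant transcript stood for the gene (0.11 and -2.99).

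The muscle splicing regulators, proteins that set tissue-specific exons in heart and skeletal muscle, were low in MI prednisone hearts. All 10 were called lower there than in sham prednisone (14.1% of all genes) and 9 of 10 lower than in MI vehicle (34.9%), with medians of -0.78 and -0.71 against -0.06 and -0.41 for all genes. After median-ratio rescaling the calls were 7 and 3 of 10 (medians -0.68 and -0.29), where 14.3% and 14.2% of all genes were called lower. After length correction they were 6 and 2 of 8 (-0.59 and -0.27), against 7.84% and 7.69% of all genes. In sham hearts prednisone changed 0 of 10 (median 0.12). Rbfox1, which binds GCAUG, was at 4.07 ± 1.24 TPM in MI prednisone and 10.6 ± 1.11 TPM in sham prednisone (-1.21, limma adjusted p = 0.00214), and was also lower in MI than sham with vehicle (-0.61, limma adjusted p = 0.0432; 0.0784 without MI vehicle replicate 3). Qk was at 22.5 ± 8.35 against 52.5 ± 5.77 TPM (-1.24, limma adjusted p = 0.00329), and Celf2 at 6.02 ± 0.819 against 14.9 ± 1.26 TPM (-1.18, limma adjusted p = 0.00628). Rbm20, the titin splicing factor, was at 22.0 ± 4.18 against 36.8 ± 3.81 TPM (-0.73, limma adjusted p = 0.0111); it was the gene not called against MI vehicle (-0.35, adjusted p = 0.0996). The tri-snRNP GTPase Eftud2 was higher in MI prednisone than in sham prednisone (1.27, limma adjusted p = 0.00504), but its most abundant transcript changed by -0.23.

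Glucocorticoid receptor motifs were sought in the RefSeq promoter windows (GRCm38.p6, 300 bases around each start), available for 46 of the 53 genes. A gene was counted if any of its windows held a match. The palindrome (AGAACA, then 3 bases of any kind, then TGTTCT), read on both strands, was found for 0 of 46 genes and for 0.0111% of 27025 genes. The run AGAACA on either strand, which the palindrome contains, was found for 8.70% of the 46 (Hnrnpd, Snrpa1, Snrpg and Srsf6) and for 21.3% of all genes with windows.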

How the data were processed

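Poly(A) mRNA from 12 myocardium samples was sequenced from stranded libraries, per the labels' protocols, and samples were grouped by title. The deposited values are TPM per transcript in a single table of 105129 rows, and each column sums to 1000000 TPM, per the file. The submitters' processing notes name Trimmomatic, HISAT2, kallisto and mm10 without roles or versions. TPM carries no read depth, so precision rests on 3 mice a group, and p-values measure the spread between these samples. Counting error could not be given. Near-identical copies and overlapping genes share reads, which makes single values uncertain.

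Transcripts were summed to symbols. The 13158 genes that reached 1 TPM in 3 or more libraries were kept, and log2(TPM + 1) was fitted with limma 3.58.1 in R 4.3.3 (4 group means, a shared spread, eBayes with trend). P-values were Benjamini-Hochberg adjusted over all tested genes and called under 0.05. Transcript types, lengths and coordinates came from GENCODE M21 (GRCm38), whose versioned identifiers covered 94.7% of rows. The balance used genes whose mean reached 1 TPM in both transcript classes.

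The genes, lists and tests were chosen with earlier results of these data known. Named are, in each comparison, up to 12 called genes in each direction whose mean reached 5 TPM and whose groups were separated, the 3 most abundant of each family, the paralogue pairs, up to 8 called balances, and up to 3 called genes in each direction of each list; others were named after their values were seen, and some genes of the lists are not reported here. Alternatives were median-ratio rescaling, leaving out mitochondrial genes, their nuclear copies and globins, no filter, a pseudocount of 0.1, no trend, only the groups compared, the most abundant transcript, a loess length correction (span 0.5), a replicate block, and each mouse left out. Median-ratio rescaling and length correction without MI vehicle replicate 3, and identifiers matched without version (98.6% of rows), were added after seeing the data. Scripts were tested on simulated data.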

Additional observations from a re-analysis of the deposited data

Results flagged for a closer look

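The prednisone effect differed between MI and sham hearts by limma's interaction term for the summed level of 7 genes, given as the effect in MI minus that in sham on the log2 scale (with adjusted p). The values were -1.06 for Hnrnph2 (0.0152), -1.18 for Hnrnpk (0.0344), -1.08 for Hnrnpll (0.0374), -1.19 for Hnrnpr (0.0308), -1.06 for Hnrnpul1 (0.0461), -1.08 for Hnrnpul2 (0.0277) and -1.05 for Srsf10 (0.0459). Each effect was lower in MI, where the median over all genes was -0.48. Over all genes 21.3% were called, so these 7 of 51 were not above the background. Without MI vehicle replicate 3 Srsf10 was no longer called.

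For the non-coding transcript balance the difference was called by limma for 10 of 22 genes, where 22.2% of all genes were called. It was higher in MI by 2.04 for Hnrnpa2b1 (adjusted p = 0.00441), 1.29 for Hnrnpk (0.0438), 1.70 for Hnrnpl (0.00827), 3.98 for Snrpa (0.00644), 1.48 for Srsf1 (0.0385), 1.84 for Srsf11 (0.0121), 1.60 for Srsf2 (0.0149) and 1.12 for Srsf5 (0.039). It was below 0 for Hnrnpdl (-1, adjusted p = 0.0379) and Hnrnpu (-1.31, adjusted p = 0.00993). Changes in sham hearts enter these differences, though none was called there. For Hnrnpdl neither part was called, at -0.38 in MI and 0.62 in sham (limma adjusted p = 0.203 and 0.636). The median over all genes was 0.50. The calls of 3 of these genes were lost without MI vehicle replicate 3, with values of 1.39 for Hnrnpk (0.0538), 1.22 for Srsf1 (0.0864) and -0.96 for Hnrnpdl (0.073). Without MI prednisone replicate 2 these 3 and Srsf5 were lost (1.12, 1.18, -0.96 and 1.06; adjusted p = 0.107, 0.0946, 0.0767 and 0.0827). Over the 12 mice left out in turn, Hnrnpk lost its call for 10, Hnrnpdl for 9, Srsf1 for 8 and Srsf5 for 8, and the other 6 genes for none.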

How the results depend on the processing

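With 1 estimate of the spread shared by groups of 3 mice, many calls lay close to the threshold. For MI against sham with vehicle, 2 genes were called with all libraries (16% of all genes). After median-ratio rescaling 1 was called (7.44% of all genes), as without mitochondrial genes, their nuclear copies and globins (10.4%). No filter (4.52%) and length correction (5.15%) also gave 1. So did rescaling or length correction without MI vehicle replicate 3 (4.61% and 3.77%), and length correction without identifier versions (5.65%). With only the groups compared (0.0152%) or the most abundant transcript (4.71%), 0 were called. The same held with the replicate block (8.03%) and with block and length correction together (0.58%). Leaving out a mouse gave 0 to 33, with 0.912% to 42.8% of all genes called. For MI against sham with prednisone 1 gene was called (16.8% of all genes). Rescaling gave 13 (26%), and 22 without MI vehicle replicate 3 (35.3%). Without the mitochondrial, nuclear-copy and globin genes there were 6 (24.8%). There were 10 with only the groups compared (24.8%) and 2 with the most abundant transcript (18%). Length correction gave 4 (12.7%), 12 without MI vehicle replicate 3 (23.5%) and 5 without versions (12.8%). Block and length correction gave 2 (7.99%). Leaving out a mouse gave 0 to 12, with 7.81% to 30.2% of all genes called. For prednisone against vehicle in MI 14 were called (37.4% of all genes). There were 9 with no filter (18%), 0 with only the groups compared (6.14%) and 5 with block and length correction (11.3%). Length correction alone gave 9 (16.7%), and 6 without MI vehicle replicate 3 (15.9%). Leaving out a mouse gave 8 to 26, with 24.7% to 47.7% of all genes called. For the interaction 7 were called (21.3% of all genes). There were 2 after rescaling (10.1%), 1 with no filter (8.21%) and 0 with block and length correction (0.816%). Length correction alone gave 2 (2.1%), 3 without MI vehicle replicate 3 (3.35%) and 2 without versions (2.1%). Leaving out a mouse gave 1 to 20, with 8.44% to 34.4% of all genes called. No alternative called a gene for prednisone in sham hearts.

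For the balance, leaving out retained introns gave 6 calls for MI against sham with prednisone, 5 for prednisone in MI and 6 for the interaction (10 each with them), and a pseudocount of 0.1 gave 6 for the interaction. Leaving out a mouse gave 7 to 11, 6 to 10 and 6 to 10.

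Direction turned for Hnrnpk's balance without retained introns (0.00, -0.19 and -0.81 in those 3 comparisons), and for Snrpn under prednisone in MI (-0.04 without MI vehicle replicate 3, -0.07 without MI prednisone replicate 3, up to 0.10 without others) and in sham (0.02 without sham vehicle replicate 2, 0.00 without sham prednisone replicate 2, down to -0.10 without sham prednisone replicate 3). With the most abundant transcript it turned for Dhx16 (-0.01), Srpk2 (0.18) and Eftud2 (-0.23) in MI against sham with prednisone, and for Son (-2.99), Srpk2 (0.11) and Eftud2 (-0.68) with prednisone in MI. With prednisone in MI it also turned under length correction for Gemin5 (0.04 with or without the block, 0.03 without versions, 0.10 without MI vehicle replicate 3) and for Dhx8 (0.07 without MI vehicle replicate 3). The cause was not tested. Of the single-gene values, 914 of 1356 level values and 389 of 428 balance values kept their direction and their side of the threshold.

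Replicate numbers belong to different animals and did not pair them: same-numbered libraries' deviations correlated by -0.37, -0.05, -0.25 and 0.00 on average in the 4 comparisons. With the replicate block the counts were 0, 1, 11, 0 and 6 for levels (interaction last) and 0, 11, 9, 0 and 8 for the balance. For levels, 8.03%, 14.4%, 33.7%, 0.0532% and 17.9% of all genes were called with the block.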
